A study of Mus musculus with 6 samples.

Results

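Regulators of G-protein signaling (Rgs genes) were described in bulk RNA sequencing of YUMM3.3 melanoma tumors taken from mice given rigosertib or vehicle. The 10 genes were Rgs2, Rgs3, Rgs4, Rgs5, Rgs10, Rgs12, Rgs14, Rgs16, Rgs17 and Rgs19, found by symbol among the 40166 genes of the count table. They are 10 of the 21 Rgs genes numbered 1 to 22 in that table, and all 10 were among the 15355 genes tested. The study shortens the drug's name to the same 3 letters as this gene family, so it is written out as rigosertib throughout. The 10 genes were selected on the difference between these same 6 libraries, with no stated threshold, so their levels, fold changes and calls are given as a description that supports nothing further, and no p-value is printed for them.

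YUMM3.3 cells come from a mouse melanoma with mutant BRAF, and they were injected under the skin of the lower back of C57BL/6 mice. Tumors were allowed to establish before treatment. The vehicle group (3 libraries, replicates 7, 8 and 9) received water and the rigosertib group (3 libraries, replicates 10, 11 and 12) received rigosertib at 300 mg/kg, both by oral gavage on 5 days a week, and tumors were collected after 17 days. The study describes rigosertib as a small molecule that mimics RAS and has the potential to block signaling through RAF and PI3K. It adds that several mechanisms have been reported, and that the source of a microtubule-destabilizing activity in rigosertib preparations is disputed. The comparison is of gene expression in tumors collected after 17 days of treatment. The study reports smaller tumors with rigosertib. It also cautions that some tumors were large and partly necrotic at collection, more so among controls. Tumor size and necrosis may thus differ between the groups and cannot be told apart from treatment here. The age and sex of the animals are not in the labels, every tumor came from this 1 cell line, and nothing states how many animals stand behind the 3 replicates of a group, so every p-value measures only the spread between these libraries.

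RGS proteins share a domain that speeds the hydrolysis of GTP by the alpha subunits of heterotrimeric G proteins, which ends signaling from G-protein-coupled receptors. Most act on the G alpha i and G alpha q classes, and the family is sorted into subfamilies by the sequence around the shared domain. The small R4 proteins (Rgs2, Rgs3, Rgs4, Rgs5 and Rgs16 among the 10) carry little beyond it, the R12 subfamily (Rgs10, Rgs12, Rgs14) includes large scaffolds that bind RAS-like GTPases, and the RZ subfamily (Rgs17, Rgs19) bears a cysteine string near its start. Rgs5 is widely used as a marker of pericytes, the mural cells of small vessels.

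The libraries held between 13837932 and 32555494 counts, with all 3 vehicle libraries deeper than any of the rigosertib libraries. Mitochondrial genes took 2.13 to 3.20% of the counts with vehicle and 5.60 to 8.22% with rigosertib. A count of 3, taken as the limit of detection, corresponded to 0.0856 to 0.226 CPM (counts scaled to a common library size). Defining markers of several cell types that a melanoma tumor could hold were at or near 0 in all 6 libraries. Of the melanocyte markers, Tyr, Dct and Mlana had no count, Tyrp1 had 2 counts in 1 library, Sox10 had 18 counts in 1 library, and Mitf had 74 to 261 counts in each. Of the immune markers, Cd3d, Cd3e, Cd3g, Cd8a, Adgre1 and Ms4a1 had no count, and Csf1r had at most 1. Of the macrophage markers, only Cd68, with 917 to 2265 counts in each library, and Cd14, with 146 to 372, were well above 0. Fcgr1 had no count, C1qb had at most 1, Lyz2 at most 2, C1qa and Itgam at most 4, and Mrc1 at most 7. Trac had no count with vehicle and 30, 16 and 10 counts with rigosertib. The table lists 17378 of its 40166 genes at 0 throughout. The study reported leukocytes, T cells and macrophages in YUMM3.3 tumors at the same time point by flow cytometry, which measures protein. The absent counts of Cd3d, Cd3e, Cd3g, Cd8a and Adgre1 differ from that description, and the reason was not tested. The labelled tissue is used as given, although these markers do not establish which cells the libraries hold. Which cells gave the Rgs transcripts cannot be read from bulk tumor RNA, in which fewer cells of a type and less RNA per cell cannot be told apart.

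Rgs5, Rgs4 and Rgs16 showed the widest differences, and all 3 lie on chromosome 1. Rgs5 (chr1:169655501-169695813, plus strand) and Rgs4 (chr1:169741477-169747642, minus strand) lie tail to tail with 45663 bases between them, and no other tested gene lies in that gap. Rgs16 (chr1:153740349-153745468, plus strand) lies 40025 bases from Rgs8 on the same chromosome. These positions are those of the GRCm38 build. The sequences around their starts are shown because Rgs4 and Rgs5 are neighbors that differed in the same direction while Rgs16 differed in the other. Each window runs from 250 bases before to 50 bases after the start, is taken from RefSeq (GRCm38.p6) and is written 5′ to 3′ on the strand of the gene. Capitals mark matches on either strand to the CRE core TGACG or to the TATA box TATAAA.
Rgs5 (chr1:169655251-169655550, plus strand): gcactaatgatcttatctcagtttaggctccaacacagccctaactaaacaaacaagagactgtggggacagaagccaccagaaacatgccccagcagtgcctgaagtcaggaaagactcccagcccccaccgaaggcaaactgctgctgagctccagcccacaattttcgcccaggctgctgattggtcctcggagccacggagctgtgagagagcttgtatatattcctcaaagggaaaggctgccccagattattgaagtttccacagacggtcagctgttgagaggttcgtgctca
Rgs4 (chr1:169747593-169747892, minus strand): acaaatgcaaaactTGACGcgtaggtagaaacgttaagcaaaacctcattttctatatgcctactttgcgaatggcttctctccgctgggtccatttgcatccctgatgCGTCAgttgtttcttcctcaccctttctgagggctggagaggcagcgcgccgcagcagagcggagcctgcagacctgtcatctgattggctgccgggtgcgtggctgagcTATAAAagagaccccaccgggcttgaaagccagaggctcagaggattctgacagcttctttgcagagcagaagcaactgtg
Rgs16 (chr1:153740103-153740402, plus strand): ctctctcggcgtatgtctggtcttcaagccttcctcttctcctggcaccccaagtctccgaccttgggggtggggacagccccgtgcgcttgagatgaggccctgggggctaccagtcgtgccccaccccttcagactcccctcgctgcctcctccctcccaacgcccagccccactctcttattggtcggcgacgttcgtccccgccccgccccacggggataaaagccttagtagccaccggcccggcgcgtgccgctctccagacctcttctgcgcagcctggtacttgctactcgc

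The 3 windows differed in base composition. The Rgs16 window held 66.0% G and C and 22 CpG dinucleotides, against 53.0% and 13 for Rgs4 and 52.3% and 6 for Rgs5, and the median over 32851 windows of the same 300 bases was 52.7% and 7. The Rgs4 window held 2 CRE cores, at positions -236 and -141 from the start, and a TATA box at -31. Neither motif was found in the Rgs5 or Rgs16 window. Of all windows, 20.8% held the core TGACG and 13.6% the TATA box. The full CRE TGACGTCA, of which the core is a part, was in 1.79% of all windows and in none of the 13 windows of the 9 matched genes, and Rgs2 held 2 CRE cores, at -185 and -67. Among the remaining genes of the 10, 1 of the 2 Rgs12 windows held a CRE core, at -82, and both Rgs3 windows held a TATA box, at -100 and -177. The AP-1 motif TGANTCA, in 7.81% of all windows, was in 1 window each of Rgs12 and Rgs17. The E-box CACGTG, in 7.15% of all windows, was in 1 window of Rgs19. These matches are descriptions of the sequence, and no binding was measured. Rgs14 was not in the promoter table.

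The 2 groups were compared across all 15355 tested genes with edgeR's quasi-likelihood test and Benjamini-Hochberg adjustment. At an adjusted p under 0.05, 3 of the 10 genes were called higher with rigosertib (Rgs4, Rgs5 and Rgs12) and 1 was called lower (Rgs16), where 16.3% of all tested genes were called higher and 16.5% lower. The other 6 (Rgs2, Rgs3, Rgs10, Rgs14, Rgs17 and Rgs19) did not pass. The CPM values of the groups did not overlap for 5 of the 10, where 45.8% of all tested genes did not overlap. As the genes were chosen by this contrast, nothing is read from these counts. The median log2 fold change of the 10 was 0.11, also with Rgs4 set to its lower bound, and that of all tested genes was -0.05.

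**Figure D1:**
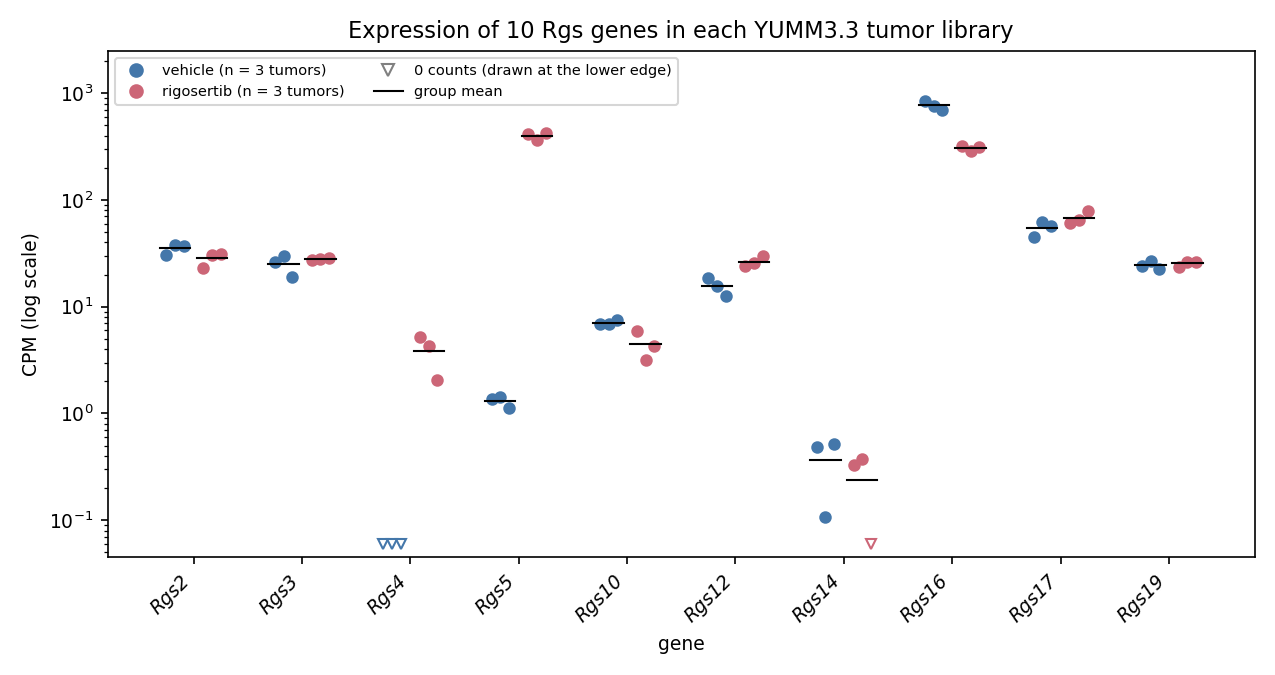
Level of each of the 10 Rgs genes in each of the 6 libraries, in CPM on a log axis, with vehicle and rigosertib libraries in different colors, a line at each group mean and libraries without a count drawn at the foot. The 3 rigosertib libraries lie between 368 and 423 CPM for Rgs5, against 1.12 to 1.42 with vehicle, and Rgs16 lies between 290 and 323 CPM with rigosertib, against 702 to 854.

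Among the R4 genes, Rgs5 encodes a short protein that acts on G alpha i and G alpha q and restrains the response of vascular mural cells to contractile ligands. It had 48, 40 and 26 counts with vehicle (1.37, 1.42 and 1.12 CPM) and 8728, 4882 and 6916 counts with rigosertib (413, 368 and 423 CPM). All 3 vehicle libraries were low and close together, all 3 rigosertib libraries were high, and the groups did not overlap. The group means were 1.30 ± 0.164 and 401 ± 29.5 CPM (SD, n = 3 each). The fitted log2 fold change was 8.25 (SE 0.22, 95% interval 7.80 to 8.70), which is 304-fold with an interval of 223 to 416. With counts thinned to the smallest library the log2 fold change of Rgs5 was 8.73, and with mitochondrial genes left out before scaling it was 8.25.

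Rgs4 encodes a regulator best studied in neurons and heart muscle. It had no count in any vehicle library, and 110, 57 and 34 counts with rigosertib (5.20, 4.29 and 2.08 CPM, mean 3.86 ± 1.61, SD, n = 3). Every rigosertib library was thus above the detection limit and every vehicle library below it. Against 3 counts in the shallowest vehicle library, the mean of the rigosertib libraries was at least 29.9-fold higher and the lowest rigosertib library at least 16.1-fold higher. The fitted fold change depends on the prior count and is not given. Although next to each other, Rgs5 and Rgs4 differed widely in level with rigosertib, at 88.2 and 1.25 CPM per kilobase of exonic length.

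Rgs16 encodes a G alpha i and G alpha q regulator that is induced by stimulation in lymphocytes and other cells. Its counts were 29933, 21232 and 16336 with vehicle (854, 756 and 702 CPM) and 6836, 3851 and 5158 with rigosertib (323, 290 and 315 CPM). It was the most abundant of the 10 per kilobase in every library, and its rigosertib values all lay below its vehicle values. The group means were 771 ± 77.0 and 310 ± 17.5 CPM (SD, n = 3 each). The log2 fold change was -1.32 (SE 0.15, 95% interval -1.63 to -1.0), which is 2.49-fold lower with an interval of 2.0 to 3.10. An antisense gene, Gm28513, shares 236 exonic bases with Rgs16, or 10.1% of its exonic length. The strand setting of the counting is not given in the sources used here, so reads in that stretch cannot be assigned, and the group means of Gm28513 itself were 1.52 (vehicle) and 0.845 CPM (rigosertib).

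Rgs2 and Rgs3 complete the R4 genes. Rgs2, which prefers G alpha q and takes part in the control of vascular tone, was at 30.5, 37.5 and 37.3 CPM with vehicle and 23.0, 30.8 and 31.1 CPM with rigosertib. Its groups overlapped, and its log2 fold change was -0.31 (SE 0.20, 95% interval -0.74 to 0.12). Rgs3, a regulator with long isoforms that also binds G beta gamma, was at 26.2, 29.7 and 18.9 CPM with vehicle and 27.7, 27.8 and 28.6 CPM with rigosertib. Its vehicle libraries spread on both sides of its rigosertib libraries, and its log2 fold change was 0.17 (SE 0.22, 95% interval -0.29 to 0.63).

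In the R12 subfamily, Rgs12 encodes a large scaffold with PDZ, RAS-binding and GoLoco parts. It was at 18.7, 15.5 and 12.7 CPM with vehicle and 24.1, 25.6 and 29.7 CPM with rigosertib (means 15.6 ± 3.00 and 26.5 ± 2.92, SD, n = 3 each). The groups did not overlap, and the log2 fold change was 0.76 (SE 0.23, 95% interval 0.27 to 1.24). Its call was lost without vehicle replicate 8, vehicle replicate 9 or rigosertib replicate 12, and with scaling by library size only, and the log2 fold change of Rgs12 under the alternatives ran from 0.61 to 0.91. An antisense gene that was not tested, Gm43791, shares 467 exonic bases (5.5%) with Rgs12.

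Rgs10 encodes a short regulator that is abundant in microglia and other immune cells, and it was at 6.90, 6.87 and 7.52 CPM with vehicle and 5.87, 3.16 and 4.28 CPM with rigosertib. All its rigosertib values were lower than all its vehicle values, but the 95% interval of its log2 fold change of -0.67 (SE 0.40) ran from -1.51 to 0.17. Rgs14, a scaffold related to Rgs12 and known from hippocampal neurons, was at the edge of detection, with 17, 3 and 12 counts with vehicle and 7, 5 and 0 with rigosertib. At this depth no difference in Rgs14 was detectable, as the 95% interval of its fold change ran from 0.0723 to 5.72.

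In the RZ subfamily, whose members act on G alpha z and G alpha i, Rgs17 was at 45.1, 62.5 and 57.1 CPM with vehicle and 61.1, 64.5 and 78.3 CPM with rigosertib. The groups overlapped, and the log2 fold change was 0.31 (SE 0.18, 95% interval -0.07 to 0.69). Rgs19, also known as GAIP, was at 24.2, 26.9 and 22.4 CPM with vehicle and 23.6, 26.4 and 26.3 CPM with rigosertib. The 2 groups of Rgs19 values covered almost the same range. Its log2 fold change was 0.05, and the 95% interval of its fold change of 1.04 ran from 0.767 to 1.40.

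**Figure D2:**
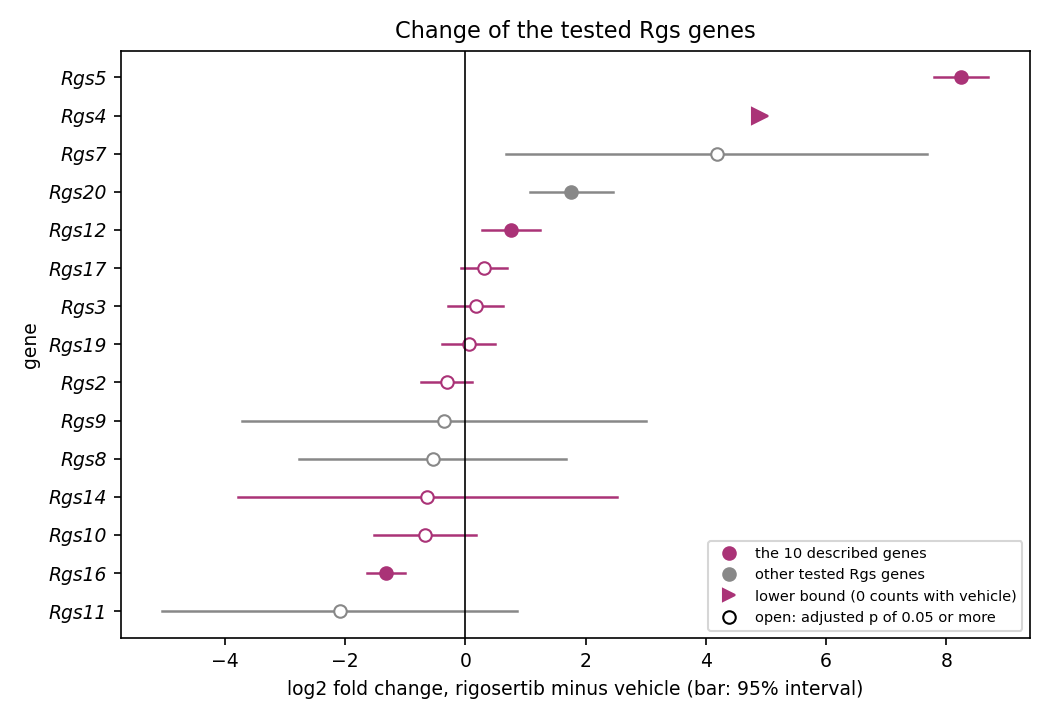
Log2 fold change, rigosertib minus vehicle, of the 15 tested Rgs genes, with points for the fitted value, bars for the 95% interval and open points for an adjusted p of 0.05 or more. Rgs5 stands at 8.25, Rgs4 is drawn as a triangle at its lower bound of 4.90 because it had no count with vehicle, and Rgs16 stands at -1.32.

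Set side by side per kilobase of exonic length, the 10 genes made up a different mixture in each group. With vehicle, Rgs16 (329.5 CPM per kilobase) took 90.1% of the summed level of the 10 (89.3 to 91.5% in single libraries). It was followed by Rgs19 (10.98), Rgs2 (9.68), Rgs17 (6.62), Rgs10 (4.15), Rgs3 (2.31), Rgs12 (1.84), Rgs5 (0.287) and Rgs14 (0.0871), all in CPM per kilobase, and Rgs4 had no count. The neighbors Rgs19 and Rgs2, and the neighbors Rgs3 and Rgs12, overlapped in their ranges. With rigosertib, Rgs16 (132.4 CPM per kilobase) took 51.4% (50.5 to 52.4%) and Rgs5 (88.2 CPM per kilobase) took 34.2% (33.4 to 34.8%). Rgs5 thus moved from the eighth place to the second, and the ranges of Rgs17 and Rgs2, and of Rgs3 and Rgs10, overlapped.

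The level of Rgs16 relative to Rgs5 per kilobase was 1210, 1030 and 1220 in the vehicle libraries and 1.52, 1.53 and 1.45 in the rigosertib libraries. Both genes shift this ratio, and within each group it varied little. The summed level of the 10 genes was 398.9, 362.2 and 335.4 CPM per kilobase with vehicle and 264, 241.8 and 267 with rigosertib (means 365.5 ± 31.9 and 257.6 ± 13.8, SD, n = 3 each). This difference depended on the division by length. In CPM the sum was 1008, 936.7 and 859.6 with vehicle and 907.3, 840.4 and 938.7 with rigosertib, and the groups overlapped. Without Rgs16 the sum was 33.8, 38.9 and 35.2 CPM per kilobase with vehicle and 125.7, 117.8 and 132.2 with rigosertib. Without both Rgs16 and Rgs5 it was 33.5, 38.6 and 35.0 with vehicle and 34.9, 37.0 and 39.1 with rigosertib, and the groups overlapped. Genes of the R4 subfamily held 93.0 to 94.3% of the summed level with vehicle and 89.8 to 90.8% with rigosertib.

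**Figure D3:**
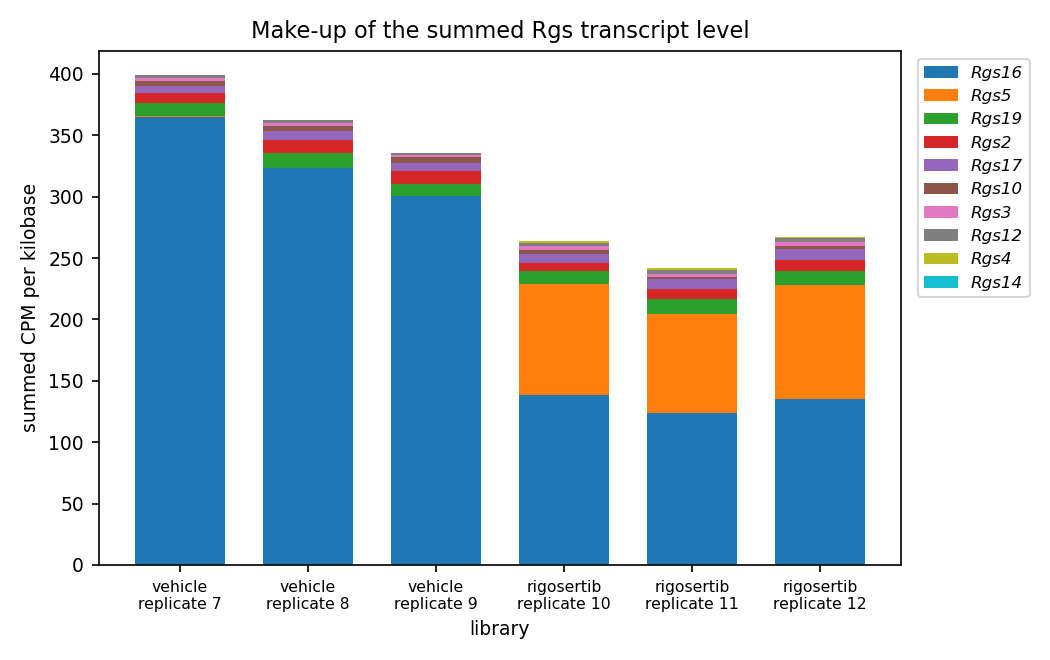
Summed level of the 10 Rgs genes in each library, as stacked bars in CPM per kilobase of exonic length starting at 0. Rgs16 fills 89.3 to 91.5% of each vehicle bar, and Rgs16 and Rgs5 together fill most of each rigosertib bar.

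Of the other 11 Rgs genes, 5 were tested, and 1 of these, Rgs20, rose. Rgs20 encodes the remaining RZ regulator, and its counts were 192, 133 and 80 with vehicle and 319, 164 and 312 with rigosertib. Its groups did not overlap, with means of 4.55 ± 1.03 and 15.5 ± 3.38 CPM (SD, n = 3 each), and the log2 fold change was 1.76 (SE 0.33, edgeR adjusted p = 4.1e-04). Rgs20 shares 127 exonic bases (3.00%) with the antisense gene Atp6v1h. Rgs7 had 5, 0 and 0 counts with vehicle and 14, 28 and 5 with rigosertib, and its edgeR adjusted p was 0.0622. Rgs8, Rgs9 and Rgs11 were low in every library and did not pass (edgeR adjusted p = 0.736, 0.889 and 0.273). Rgs1, Rgs6, Rgs13, Rgs18 and Rgs21 had no count in any library, and Rgs22 had 5 counts in rigosertib replicate 10 alone. Rgs13, Rgs1, Rgs21 and Rgs18 lie in a row next to Rgs2 on chromosome 1, so the run held 1 gene with counts and 4 without.

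Tested genes next to Rgs5, Rgs4 and Rgs16 were compared in the same fit. Nuf2, which encodes a kinetochore protein and lies 124036 bases before Rgs5, fell (log2 fold change -1.80, SE 0.27, edgeR adjusted p = 4.24e-05). Hsd17b7, an enzyme of cholesterol synthesis that lies 201892 bases beyond Rgs4, did not pass (log2 fold change -0.18, SE 0.18, edgeR adjusted p = 0.482). On the side before Rgs16, C230024C17Rik, 2519 bases away, fell (log2 fold change -1.67, SE 0.43, edgeR adjusted p = 0.00578). The nearest tested genes to the others of the 10 were in part far away. Pla2g4a (log2 fold change -0.83, 5825456 bases from Rgs2), Tial1 (-0.84, 21018 bases from Rgs10) and Pcmtd2 (-0.69, 143876 bases from Rgs19) fell. Col27a1 (1.6, 510002 bases from Rgs3) rose, and the remaining neighbors of these genes did not pass. The Pcmtd2 call was lost without vehicle replicate 8 or rigosertib replicate 12.

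The pericyte and smooth muscle markers were examined beside Rgs5 because it is itself used as a pericyte marker. Of the 13 other markers, 7 were tested, 2 rose (Des and Mcam) and 5 fell, with a median log2 fold change of -1.27 against -0.05 for all tested genes. Pdgfrb, the receptor that recruits pericytes to vessels, was at 18.5, 14.5 and 10.6 CPM with vehicle and 4.12, 3.31 and 2.02 CPM with rigosertib, and it fell (log2 fold change -2.20, SE 0.38, edgeR adjusted p = 1.79e-04). Acta2, the smooth muscle actin, was at 83.1, 95.8 and 85.9 CPM with vehicle and 14.3, 18.7 and 21.5 CPM with rigosertib (log2 fold change -2.28, SE 0.19, edgeR adjusted p = 6.63e-08). Notch3, a mural cell receptor, also fell (log2 fold change -1.27, SE 0.32, edgeR adjusted p = 0.00519), as did Cnn1, which encodes a calponin (log2 fold change -2.30, SE 0.74, edgeR adjusted p = 0.0217). The Cnn1 call was lost without vehicle replicate 9 or rigosertib replicate 10.

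Other genes in common use as pericyte markers, Kcnj8, Abcc9, Higd1b and Vtn, had no count in any of the 6 libraries. The summed level of the whole list was 244.1 to 328.7 CPM with vehicle and 157.2 to 158.7 CPM with rigosertib. This sum was lower with rigosertib while Rgs5 was higher, but the tested markers of the list were mixed, as 2 rose and 5 fell. Of the 2 that rose, Des had no count with vehicle and 24, 5 and 5 counts with rigosertib. It passed the count filter through the rigosertib group alone. Tagln had at most 9 counts and Myh11 at most 24 in any library, and neither was tested. Mcam, a large part of the sum, was at means of 51.6 CPM with vehicle and 71.0 CPM with rigosertib. Of the 10 endothelial markers, 6 were tested, 2 rose (Cdh5 and Eng) and none fell. Cdh5, the endothelial cadherin, had 24, 7 and 17 counts with vehicle and 120, 36 and 167 with rigosertib, a log2 fold change of 3.47 (SE 0.68, edgeR adjusted p = 6.37e-04), while Emcn and Robo4 had no count in any library. The summed endothelial level was 42.2 to 53.98 CPM with vehicle and 71.5 to 85.4 CPM with rigosertib. Most of this sum was Eng, at means of 43.3 CPM with vehicle and 67.3 CPM with rigosertib. Kdr had at most 6 counts in any library and Tie1 at most 3, and Pecam1 and Tek did not pass. The part of these differences in the Rgs5 values was not tested.

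Markers of some other cell types also differed between the groups. The summed levels of the melanocyte, B cell, neutrophil, platelet and skeletal muscle markers overlapped between the groups. Of the 8 neuron and Schwann cell markers, 7 were tested, 3 rose (Nefl, Snap25 and Tubb3) and 2 fell (Syt1 and Mbp), and their summed level was 55.3 to 63.7 CPM with vehicle and 510.2 to 597.8 CPM with rigosertib. With rigosertib most of this sum was Nefl, a neurofilament gene. It was at 25.3, 22.6 and 26.99 CPM with vehicle and 469.7, 389 and 489 CPM with rigosertib (log2 fold change 4.17, SE 0.18, edgeR adjusted p = 4.5e-12). The log2 fold change was 1.69 for Tubb3, a neuronal tubulin (edgeR adjusted p = 1.62e-06), and 2.18 for Snap25, a synaptic SNARE protein (edgeR adjusted p = 8.77e-04). The myelin gene Mbp went the other way, with 30, 24 and 29 counts with vehicle and none with rigosertib.

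Of the 8 fibroblast markers, 6 were tested, 1 rose (Dcn, decorin, log2 fold change 3.24, edgeR adjusted p = 6.23e-05) and 3 fell (Col3a1, Col1a2 and Pdgfra, log2 fold change -0.90, -0.73 and -0.70), with summed levels of 396.6 to 583.1 CPM with vehicle and 290.2 to 318.9 CPM with rigosertib. Of the 8 keratinocyte markers, 2 were tested and 1 rose, Ivl (involucrin), with 0 counts in each vehicle library and 124, 151 and 321 with rigosertib, while Krt1 and Dsg3 had no count in any library. The summed keratinocyte level was 0.428 to 1.72 CPM with vehicle and 6.77 to 23.1 CPM with rigosertib, where most of it was Ivl. Of the 10 macrophage markers, 2 were tested and Cd14, a lipopolysaccharide co-receptor, rose (log2 fold change 1.66, SE 0.27, edgeR adjusted p = 1.36e-04), with summed levels of 65.1 to 70.96 CPM and 82.99 to 106.5 CPM. Most of this sum was Cd68, which did not pass (log2 fold change 0.24). Of the 10 T and NK cell markers, 2 were tested and Trac was called higher, but the summed levels of 0.77 to 3.61 CPM and 1.77 to 3.69 CPM overlapped. The part of any of these lists in the Rgs4 and Rgs5 values was not tested.

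**Figure D4:**
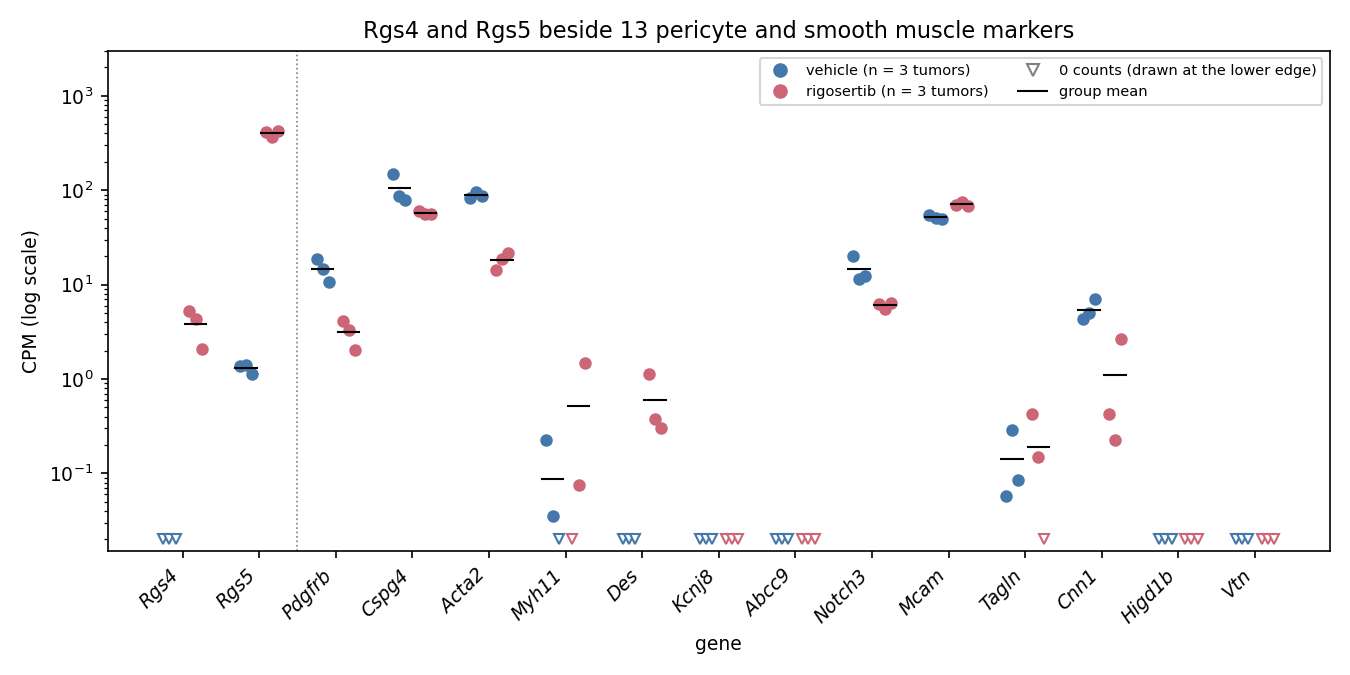
Level of Rgs4, Rgs5 and the 13 pericyte and smooth muscle markers in each of the 6 libraries, in CPM on a log axis, with a line at each group mean and libraries without a count drawn at the foot. Rgs5 lies at 368 to 423 CPM with rigosertib. Pdgfrb, Acta2, Cnn1 and Notch3 lie lower with rigosertib than with vehicle, Des and Mcam lie higher, and Kcnj8, Abcc9, Higd1b and Vtn are at 0.

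The G alpha subunits on which RGS proteins act were described next. Of all tested genes, 16.3% were called higher and 16.5% lower, which is the reference for every list here, above and below. No list was tested as a set. Of 7 tested G alpha i and o genes, 1 rose and 1 fell, and their median log2 fold change was 0.01. Gnai2 was at 540.8, 467.5 and 436.5 CPM with vehicle and 638, 658 and 783 CPM with rigosertib (log2 fold change 0.53, SE 0.15, edgeR adjusted p = 0.0131). Gnai3 was at 191, 204 and 198 CPM with vehicle and 112, 98.6 and 91.6 CPM with rigosertib (log2 fold change -0.97, SE 0.15, edgeR adjusted p = 8.19e-05). The 2 inhibitory subunits thus moved in opposite directions, and neither overlapped between groups. The Gnai2 call was lost with scaling by library size only and without vehicle replicate 8 or rigosertib replicate 12.

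Of the 2 tested G alpha q genes, Gna11 rose (log2 fold change 0.90, SE 0.16, edgeR adjusted p = 2.52e-04), while Gnaq was at 51.6, 39.5 and 45.2 CPM with vehicle and 44.0, 50.6 and 47.8 CPM with rigosertib. Of the 4 tested G alpha s and 12 genes, Gna12 rose (log2 fold change 0.92, SE 0.19, edgeR adjusted p = 0.00126) and so did Gnas, the stimulatory subunit (log2 fold change 0.54, SE 0.17, edgeR adjusted p = 0.0214). The Gnas call was lost with scaling by library size only and without any 1 of 4 libraries (vehicle replicates 8 and 9, rigosertib replicates 10 and 11). Of 13 tested G beta and gamma genes, 2 rose (Gnb1 and Gnb2) and 2 fell (Gnb4 and Gng12). Their median log2 fold change was -0.58, and -0.47 with a gene at the detection limit set to its bound. That median weighs genes with few counts, such as Gng10 with at most 9 in any library, the same as Gnb1 and Gnb2. The summed level of the list was 1076 to 1182 CPM with vehicle and 1351 to 1468 CPM with rigosertib. Gnb1 lost its call under 9 alternatives. Gnb5, the partner of the R7 regulators, was at a log2 fold change of 0.04 (edgeR adjusted p = 0.875).

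Downstream of the G proteins, 8 adenylyl cyclase and phospholipase C beta genes were tested, 3 rose and 1 fell, with a median log2 fold change of 0.02. Adcy7 rose from 10.2, 8.66 and 7.69 CPM to 30.4, 35.1 and 16.8 CPM (log2 fold change 1.63, SE 0.28, edgeR adjusted p = 2.09e-04). Plcb4 fell from 23.8, 17.8 and 24.0 CPM to 11.9, 10.2 and 5.81 CPM (log2 fold change -1.23, SE 0.29, edgeR adjusted p = 0.00293). Neither gene overlapped between the groups. Plcb3 also rose (log2 fold change 0.60, SE 0.18, edgeR adjusted p = 0.0128), but lost its call with scaling by library size only and without vehicle replicate 8 or rigosertib replicate 12. The third gene that rose, Adcy8, had at most 1 count in any vehicle library and 38, 16 and 41 counts with rigosertib, and it was named after its values were seen.

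**Figure D5:**
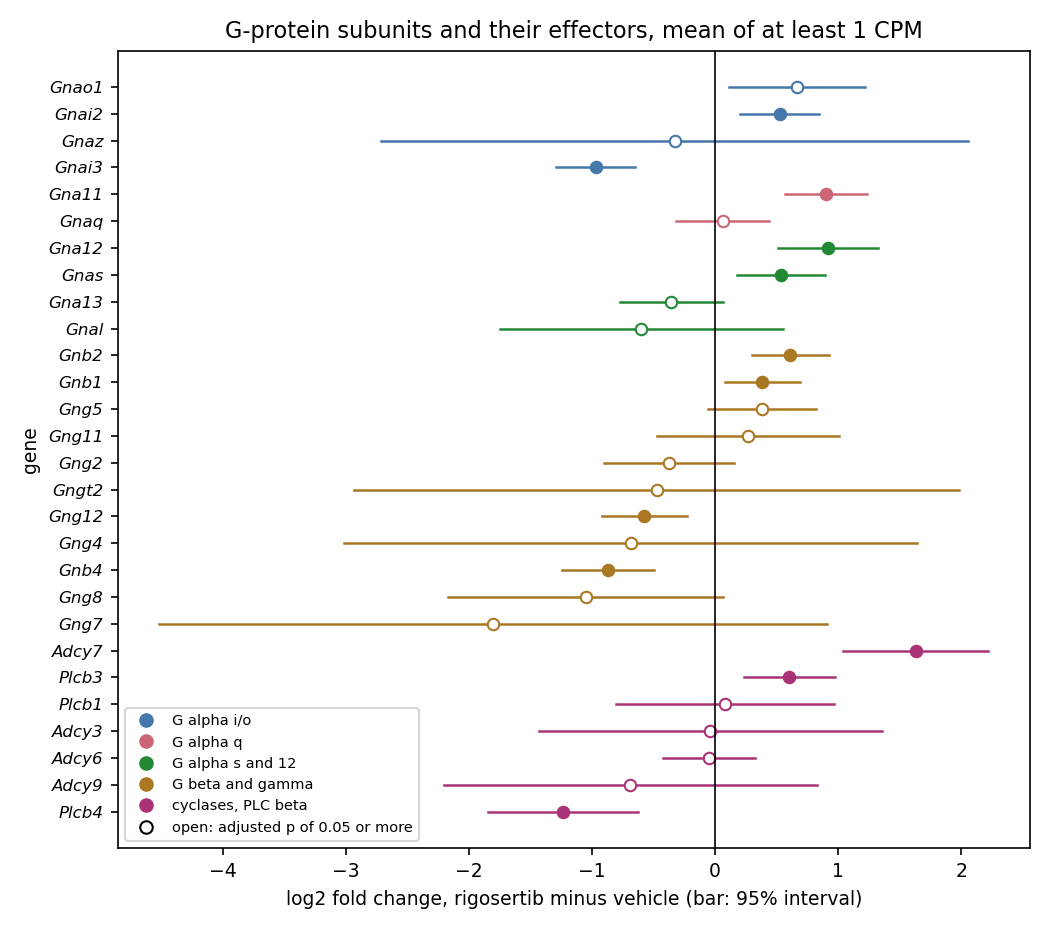
Log2 fold change, rigosertib minus vehicle, of the 28 G-protein subunit and effector genes with a mean of at least 1 CPM, with bars for the 95% interval and open points for an adjusted p of 0.05 or more. Of these, 12 passed, among them Gnai2 at 0.53, Gnai3 at -0.97, Adcy7 at 1.63 and Plcb4 at -1.23. Of all tested genes, 16.3% were called higher and 16.5% lower. Those shares include genes under a mean of 1 CPM, so they are not a like reference for the plotted genes.

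Of 23 tested receptors that couple to G proteins, 6 rose and 3 fell, with a median log2 fold change of 0.26. Among all tested genes, 16.3% were called higher and 16.5% lower. Cxcr4, the receptor for Cxcl12, was at 39.4, 58.9 and 63.6 CPM with vehicle and 159, 204 and 165 CPM with rigosertib (log2 fold change 1.70, SE 0.19, edgeR adjusted p = 1.76e-06). The adenosine receptors moved apart. Adora2b fell from 9.90, 10.8 and 10.01 CPM to 2.18, 0.376 and 0.734 CPM (log2 fold change -3.17, SE 0.53, edgeR adjusted p = 1.63e-04). Adora2a had 11, 0 and 0 counts with vehicle and 109, 38 and 32 with rigosertib (edgeR adjusted p = 0.00497). It passed the count filter through the rigosertib group alone. Bdkrb2, a bradykinin receptor, rose (log2 fold change 2.34, SE 0.58, edgeR adjusted p = 0.00451), but its call was lost without rigosertib replicate 10.

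Genes that respond to cyclic AMP and CREB were examined because G alpha s and G alpha i control cyclic AMP. Of 15 tested, 6 rose and 1 fell, with a median log2 fold change of 0.25, where 16.3% of all tested genes were called higher and 16.5% lower. Areg, which encodes the EGF receptor ligand amphiregulin, was at 29.2, 32.4 and 39.6 CPM with vehicle and 457.8, 432.8 and 485.7 CPM with rigosertib, which was the largest difference on the list (log2 fold change 3.77, SE 0.17, edgeR adjusted p = 1.74e-11). Crem, a CREB family factor, rose (log2 fold change 1.04, SE 0.28, edgeR adjusted p = 0.00774), and so did the phosphatase gene Dusp1 (log2 fold change 0.78, SE 0.15, edgeR adjusted p = 7.14e-04). Pde4b, a phosphodiesterase that degrades cyclic AMP, rose too (log2 fold change 0.70, SE 0.19, edgeR adjusted p = 0.0094), and lost its call without rigosertib replicate 10. Nr4a1, Nr4a2, Nr4a3 and Fos did not pass.

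The Rgs4, Rgs5 and Rgs16 proteins are known substrates of the N-degron pathway, in which arginylation of an exposed N-terminal cysteine marks a protein for degradation. Of the 7 tested genes of this pathway, 1 rose and 1 fell, with a median log2 fold change of 0.28. Ate1, the arginyl transferase, was at 59.1, 49.4 and 48.9 CPM with vehicle and 36.1, 29.4 and 26.1 CPM with rigosertib (log2 fold change -0.78, SE 0.19, edgeR adjusted p = 0.00407). Ubr4, one of the ligases that recognize such ends, was at 204, 123 and 138 CPM with vehicle and 364, 368 and 344 CPM with rigosertib (log2 fold change 1.21, SE 0.18, edgeR adjusted p = 4.29e-05). No protein was measured in these libraries.

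Other genes with an RGS-like domain, or with the GoLoco motif that Rgs12 and Rgs14 carry, were counted last. Of 13 tested genes with a related domain, 3 rose and 2 fell, with a median log2 fold change of 0.31. Grk2, a kinase that desensitizes receptors, rose (log2 fold change 0.73, SE 0.20, edgeR adjusted p = 0.00999), as did Arhgef12, an exchange factor activated by G alpha 12 and 13 (log2 fold change 0.76, SE 0.18, edgeR adjusted p = 0.00333). The sorting nexins Snx13 and Snx25 fell (log2 fold change -0.77 and -0.72, edgeR adjusted p = 0.00501 and 0.0043). The Grk2 call was lost without rigosertib replicate 10 and the Snx13 call without vehicle replicate 8. Of 6 tested GoLoco genes, 2 rose, with a median log2 fold change of 0.25. These were Rap1gap (log2 fold change 0.78, SE 0.19, edgeR adjusted p = 0.00318) and Gpsm3 (log2 fold change 0.96, SE 0.35, edgeR adjusted p = 0.0417), and the call of Gpsm3 was lost under 7 alternatives.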

How the data were processed

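RNA from YUMM3.3 tumors was sequenced as paired-end reads (3 vehicle and 3 rigosertib libraries). The deposited file holds raw read counts per gene, which the authors made with STAR and featureCounts. The submitters' processing notes name cutadapt 1.18, FastQC 0.11.7, STAR 2.7.1a, featureCounts 1.6.4 and the mm10 build. The strand setting of the counting is not given in the sources used here. Of the 15355 tested gene identifiers, 14595 were in GENCODE M21 (GRCm38), all at the same position. Promoter windows came from a RefSeq table (GRCm38.p6).

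Genes whose median count reached 5 in either group or both were kept, the filter that the study describes. Counts were scaled by TMM and tested with edgeR 4.0.16 in R 4.3.3 (quasi-likelihood, no covariates, Benjamini-Hochberg over all kept genes, threshold 0.05). DESeq2 1.42.0, limma 3.58.1 (voom), other scalings and filters, thinned counts and leaving out each library in turn were the alternatives. With 3 against 3 libraries an exact permutation test of a single value cannot go below p = 0.1. CPM used TMM-scaled library sizes, and CPM per kilobase used the exonic length in the file. A fold change against a group with no count is a lower bound against 3 counts in the shallowest library of that group, and covers counting error only. Totals of 13837932 to 32555494 counts set the precision. Libraries of a group differed by more than sampling noise (chi-square per degree of freedom of 18.5 to 127), so none was counted as a duplicate. The script was tested on simulated counts.

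The 10 Rgs genes and all gene lists were chosen with earlier results of these data known. The rule for named genes takes the 10, the other Rgs genes, the nearest tested neighbors of the 10 and, from each list, up to 4 genes with the largest change among those past the threshold, with groups that did not overlap and a mean of at least 1 CPM. Markers named for their counts at or near 0, and genes named to account for a count of 5 or fewer, stand outside this rule. Neighbors of the other 7 genes that did not pass are given as a group. 1 neighbor and 1 marker that this rule or these lists cover are not reported here.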

Additional observations from a re-analysis of the deposited data

How the results depend on the processing

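Each count was recomputed under 18 alternatives and each gene under up to 17. Of 168 values for the 10 Rgs genes, 164 kept their side of the threshold, 4 lost it (all Rgs12) and 0 reversed a call, which is a description, since these genes were chosen by this contrast. Between 2 and 3 of the 10 were called higher and 1 lower throughout. The log2 fold change ran from 8.11 to 8.73 for Rgs5, -1.46 to -1.24 for Rgs16 and 1.57 to 1.92 for Rgs20. Rgs14 and Rgs19, which did not pass, changed sign. Rgs7 passed under 4 alternatives (DESeq2, voom, thinned counts, and without vehicle replicate 7). For the other 67 named genes, 1083 of 1130 values kept their side, 37 lost it and 10 gained it.

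Of all tested genes, 2503 were called higher and 2533 lower. An added limit of 1 on the absolute log2 fold change left 1168 higher and 1450 lower. Scaling by library size only gave 1870 higher and 3152 lower and moved the median of all genes to -0.19. Voom gave 3407 and 3408 with a median of -0.10, and DESeq2 gave 2767 and 2642. Leaving out 1 library gave 1776 to 2698 higher and 1717 to 2551 lower. A group left with 2 libraries shares the estimate of spread with the other. No paired analysis was possible because the groups share no replicate number. Depth limits Rgs14 and the other genes at few counts.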
